A study of Mus musculus with 12 samples.

Results

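The genes described here encode subunits of the 3 nuclear RNA polymerases and of the RNA exosome, together with proteins of the nucleolus that modify and cleave ribosomal RNA. They were chosen by symbol in the gene table of the array platform: Polr1, Polr2 and Polr3 followed by letters, Exosc or Nop followed by a number, Utp followed by a number and at most a letter, and Fbl, Ncl, Npm1, Dkc1, Nhp2 and Gar1. This gave 60 genes of the 18193 named on the platform: 5 of Pol I, 11 of Pol II, 9 of Pol III, 10 of the exosome, 14 Nop and nucleolar genes and 11 Utp genes. Each gene was read from its probe set with the highest mean over the 12 arrays, out of 124 probe sets for these genes. All 60 were among the 13067 genes kept for testing.

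RNA was taken from D3, a line of mouse embryonic stem (ES) cells, which had been kept on MMC treated mouse embryonic fibroblasts and was differentiated through embryoid bodies, aggregates in which stem cells begin to form other cell types. The groups were control day0 and control day8, without an agent, and BPA day8 and NP day8, with the agent of that label. Each group held 3 arrays. Neither the agents' full names nor doses are given in the labels. Whether the replicates came from separate cultures is not stated either, so the p-values reflect the spread among these arrays, which may be technical. The same cell line and feeder layer are named for the 4 groups, and no other genotype is named. The amount of feeder RNA on the arrays of each group was not tested. All values are log2 signals as deposited, scaled by the authors to a common trimmed mean per array, and a difference of 1 is a 2-fold difference in signal.

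RNA polymerase I transcribes the precursor of the large ribosomal RNAs in the nucleolus, RNA polymerase II transcribes messenger RNAs and most small nucleolar RNAs, and RNA polymerase III transcribes transfer RNAs and other short RNAs. The ribosomal precursor is folded and cut in the small subunit processome, which holds the Utp proteins, and its nucleotides are modified by small nucleolar RNPs: those of the box C/D class (Fbl, Nop56, Nop58) methylate the ribose, and those of the box H/ACA class (Dkc1, Nhp2, Nop10, Gar1) turn uridine into pseudouridine. The exosome trims and degrades RNA from its 3′ end. Embryonic stem cells divide fast and are known for high ribosome production.

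From day 0 to day 8 of control culture these genes fell. Of the 60, 45 were lower at day 8 and 0 were higher (limma, Benjamini-Hochberg adjusted p under 0.05), and 15 of the 45 fell by at least 2-fold. Among all 13067 genes tested, 48.7% were called, 20.5% lower and 28.3% higher. The median change of the 60 was -0.74, beside 0.12 for all genes tested. The arrays of both groups did not overlap for 48 of the 60, all 48 lower at day 8, beside 24.2% of all genes tested that were lower and 32.5% that were higher without overlap. No member was higher even at an unadjusted p under 0.05, where 51 were lower.

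The falls reached into every class. Of 14 Nop and nucleolar genes 13 fell, of 10 exosome genes 8, of 5 Pol I genes 4, of 11 Utp genes 8, of 11 Pol II genes 7 and of 9 Pol III genes 5. The median change was deepest for Pol I (-0.98), Utp (-0.97) and Nop and nucleolar genes (-0.90), followed by the exosome (-0.74), Pol II (-0.54) and Pol III (-0.53). These differences between classes were not tested. In these bulk samples fewer cells of a type and less RNA per cell cannot be told apart.

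**Figure D1:**
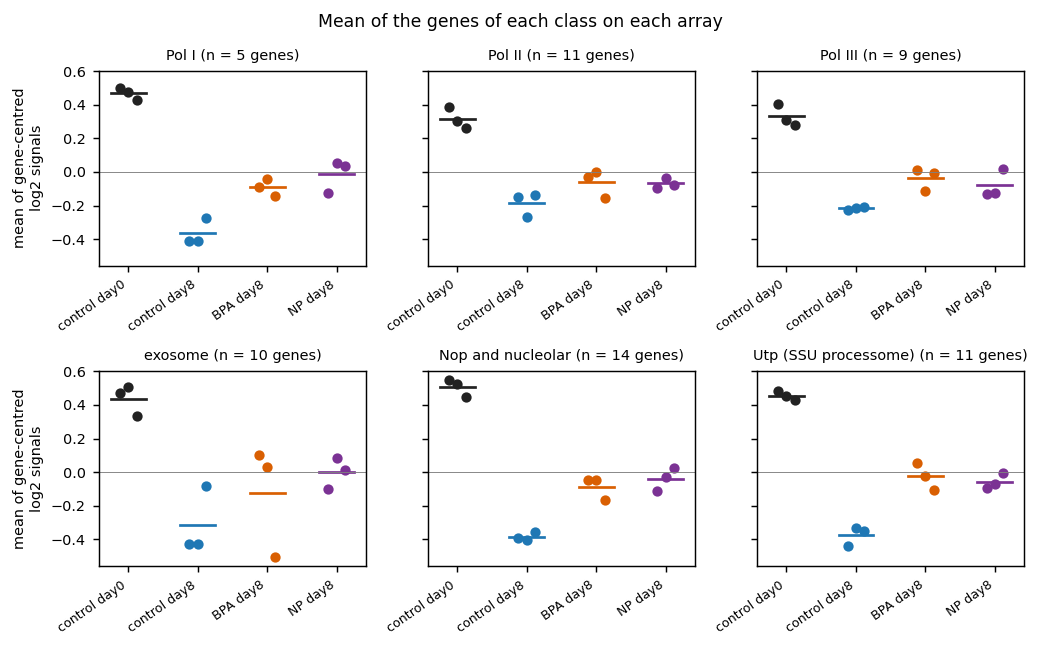
Mean, over the genes of a class, of log2 signals centred on each gene's mean over the 12 arrays, by group (each point is 1 array, each bar the group mean, n = 3). In the Pol I, Nop and nucleolar, and Utp panels the control day0 arrays lie highest and the control day8 arrays lowest. The BPA and NP arrays lie between them. In the exosome panel BPA replicate 3 lies lowest of all, at -0.50. This point rests largely on Exosc6, a gene near background, which read 0.11 on that array, beside its mean of 3.60 over the 12 arrays.

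Markers of other cells moved over the same days. The summed signal of 6 pluripotency markers (Pou5f1, Nanog, Zfp42, Esrrb, Sox2, Tdgf1) was 13.78 to 13.88 on control day0 arrays and 10.43 to 11.22 on control day8 arrays, as log2. That of 6 fibroblast markers was 11.47 to 11.99 and then 12.03 to 12.72, and its members differed. Thy1 read 7.98 to 8.51 at day 0 and 1.73 to 4.06 at day 8, around the background level of 3.41. S100a4 read 9.81 to 10.55 and then 2.6 to 3.8, also around background. Postn, by contrast, read 8.32 to 8.82 and then 10.75 to 11.44. The sum for 6 visceral endoderm markers went from 6.34 to 6.67 up to 12.65 to 13.62, and that for 6 cardiac markers from 6.26 to 6.74 up to 10.91 to 11.55. At day 0, 2 of the visceral endoderm markers and 1 of the cardiac markers were at or under background on all arrays. The part of this change in cell makeup in the fall of the 60 genes was not tested.

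Promoter sequences are shown because the members moved together. RefSeq promoter windows (build GRCm38.p6, 300 bases each, 250 before and 50 after the start) were matched for 48 of the 60 genes by symbol, and motifs were searched on both strands. The E-box CACGTG, which Myc and related factors bind, was in the windows of 11 of the 48 genes (22.9%). The shares were 11.5% of 10536 genes tested on the arrays and 8.1% of all 27025 genes with a window. The ETS core CCGGAAG was in 15 (31.2%), beside 18.7% of genes tested and 9.9% of all genes with a window. The sequences below are the 120 bases before the start of 5 genes that fell at day 8, 5′ to 3′ on the gene's strand. The E-box and the ETS core, or its reverse complement, are in capitals. Each of the 5 carries the E-box, the ETS core or both there, so these examples do not show how common the motifs are. The 5 genes are Nop2 (chr6:125131763-125131882, plus strand), Exosc5 (chr7:25659033-25659152, plus), Utp18 (chr11:93885767-93885886, minus), Nhp2 (chr11:51619653-51619772, plus) and Polr3g (chr13:81711014-81711133, minus).
Nop2: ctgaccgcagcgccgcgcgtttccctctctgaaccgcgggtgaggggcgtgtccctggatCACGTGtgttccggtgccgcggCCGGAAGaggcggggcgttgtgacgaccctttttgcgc
Exosc5: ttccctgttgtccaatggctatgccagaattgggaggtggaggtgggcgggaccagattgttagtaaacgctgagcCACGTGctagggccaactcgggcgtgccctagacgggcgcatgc
Utp18: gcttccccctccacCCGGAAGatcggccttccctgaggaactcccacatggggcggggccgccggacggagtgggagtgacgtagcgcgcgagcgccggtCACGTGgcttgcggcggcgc
Nhp2: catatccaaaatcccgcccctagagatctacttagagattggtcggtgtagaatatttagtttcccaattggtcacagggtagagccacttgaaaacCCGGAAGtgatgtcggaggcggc
Polr3g: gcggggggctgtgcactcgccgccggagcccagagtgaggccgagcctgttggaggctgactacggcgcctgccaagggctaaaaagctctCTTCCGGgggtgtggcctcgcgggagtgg
In Nop2 the E-box began 60 bases before the start and the ETS core 38 bases before it, listed as -60 and -38, and in Utp18 they began at -20 and -106. The E-box of Exosc5 began at -44. Nhp2 carried an ETS core at -23 and Polr3g the reverse complement at -29.

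Both motifs were also present in members not called lower with the deposited values. The E-box was found in 8 of the 38 matched members called lower (21.1%) and in 3 of the other 10 (30%), namely Polr3c, Polr3e and Utp14b. The ETS core was found in 14 of the 38 (36.8%) and in 1 of the other 10 (10.0%), Polr2c. The other motifs searched were rarer among members. GCGCATGC, bound by NRF1, was in 4 (8.3%, beside 5.7% of genes tested and 3.0% of all genes with a window). AAGATGGC, bound by YY1, was in 1 (2.1%, beside 4.9% and 3.2%), and TATAAA in 3 (6.2%, beside 9.3% and 15.7%). A match is a description of the letters in the window and not evidence of binding.

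**Figure D2:**
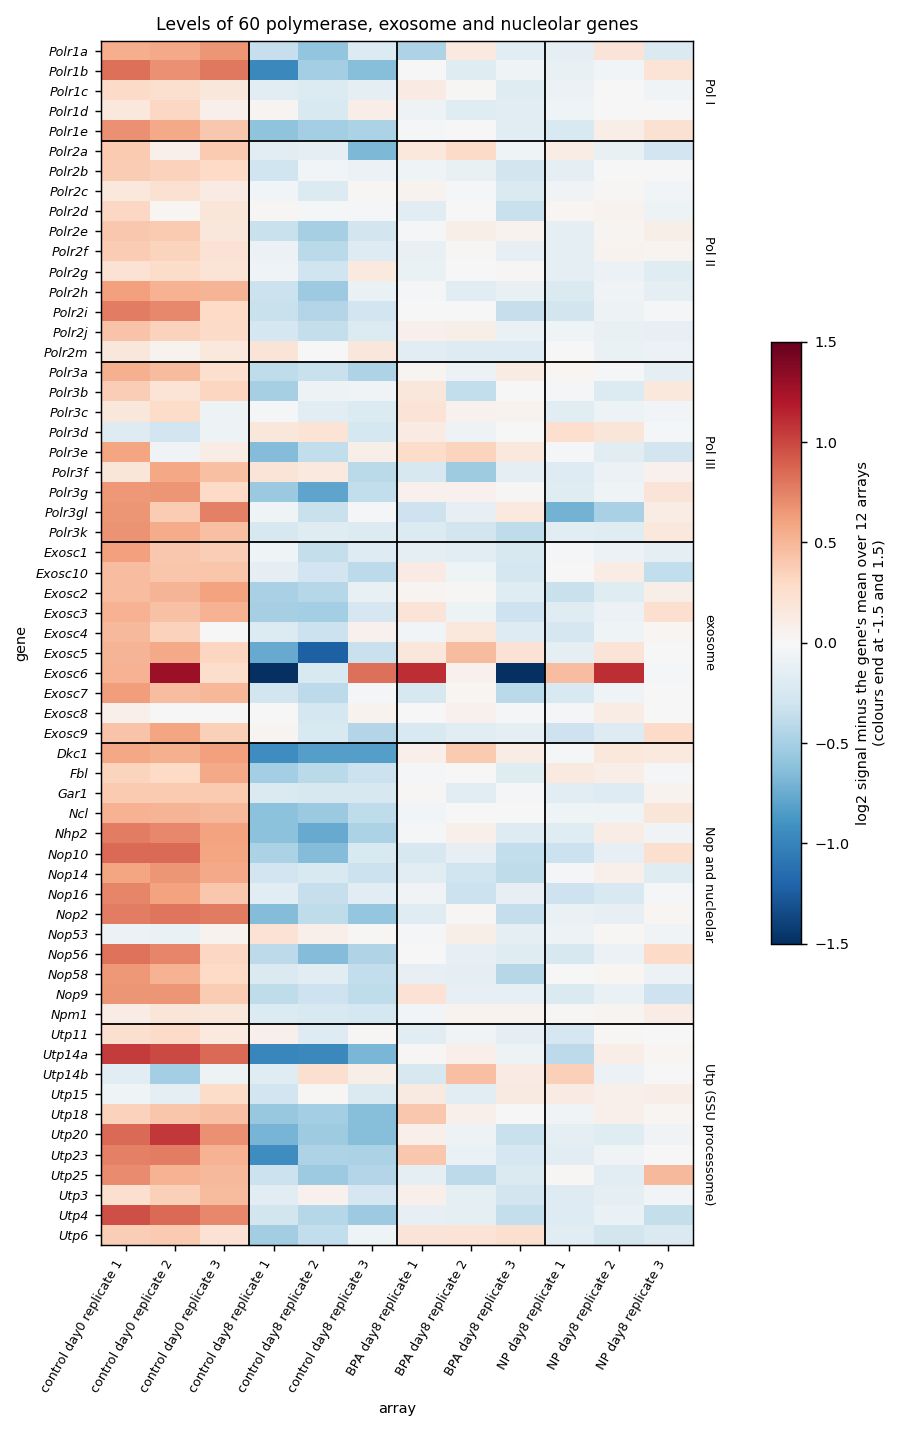
Log2 signals of the 60 genes (rows, by class) on the 12 arrays (columns, by group), each gene centred on its mean over the arrays; colours end at -1.5 and 1.5. The control day0 columns are red and the control day8 columns blue for most rows, while Polr3d, Utp14b and Nop53 are not higher at day 0 and Exosc6 varies within groups.

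Among Pol I genes, Polr1b, the second of the large catalytic subunits (Entrez gene 20017), read 8.06, 7.92 and 8.03 on control day0 arrays, 6.27, 6.72 and 6.59 on control day8, 7.22, 7.05 and 7.17 with BPA and 7.13, 7.19 and 7.44 with NP. Every day 0 array was above every other array, and every control day8 array below every agent array. The fall over control culture was -1.47 ± 0.13 (SE; adjusted p = 2.96e-05, limma). Polr1e, a Pol I specific subunit, fell by 1.08 ± 0.13 and Polr1a, the largest subunit, by 0.98 ± 0.17; its 2 other probe sets above background on all arrays gave -0.27 and -1.52. Polr1c, which Pol I and Pol III share, changed by -0.41 ± 0.09 (adjusted p = 0.00528), and Polr1d, the other shared subunit, did not pass at -0.21 ± 0.11 (adjusted p = 0.136).

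Pol II genes moved less. Polr2i (-0.95 ± 0.15), Polr2h (-0.87 ± 0.12) and Polr2e (-0.69 ± 0.11) fell most; Polr2e, Polr2f and Polr2h encode subunits common to the 3 polymerases. Polr2a, the largest subunit, read 9.07, 8.76 and 9.07 at day 0 and 8.52, 8.53 and 8.0 at control day8. These groups did not overlap, and the change was -0.61 ± 0.18 (adjusted p = 0.0182). It was lost without control day0 replicate 1 or 3 or control day8 replicate 3 (adjusted p = 0.0549 to 0.0588), and was -0.03 (adjusted p = 0.965) when the dimmer probe set was averaged in. Polr2c, Polr2d, Polr2g and Polr2m did not pass.

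Polr2m, a protein associated with Pol II rather than a core subunit, was the flattest member over control culture. It read 10.40, 10.29 and 10.40 at day 0 and 10.43, 10.24 and 10.41 at control day8, where the arrays overlapped fully, and 10.06, 10.04 and 10.05 with BPA, below all control arrays. With NP it read 10.24, 10.14 and 10.15, of which the first lay level with the lowest control array after rounding and the others below it.

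For Pol III, the paralogs Polr3g and Polr3gl encode alternative forms of a subunit, of which Polr3g is known as the form of pluripotent and tumour cells. Polr3g (Entrez gene 67486) read 8.40, 8.41 and 8.05 at day 0, 7.20, 6.96 and 7.39 at control day8, 7.81, 7.81 and 7.77 with BPA and 7.57, 7.69 and 7.94 with NP. Day 0 stood above all other groups, and control day8 below them. The fall was -1.11 ± 0.15 (adjusted p = 0.00025). Polr3gl (Entrez gene 69870) also fell, from 6.34, 6.06 and 6.44 to 5.62, 5.34 and 5.66, a change of -0.74 ± 0.22 (adjusted p = 0.0179). It read 5.37, 5.55 and 5.82 with BPA and 4.97, 5.19 and 5.79 with NP, which overlap with control day8. So the paralogs did not move in opposite directions over control culture; the difference between their changes was not tested. The Polr3gl call was lost without control day0 replicate 1 or 3 or control day8 replicate 2 (adjusted p = 0.0515 to 0.0634).

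Polr3a, the largest Pol III subunit, fell by 0.81 ± 0.11 and Polr3b, the second largest, changed by -0.51 ± 0.17 (adjusted p = 0.0346; 0.0528 to 0.124 without any of the control day0 arrays or control day8 replicate 1). Polr3c, Polr3d, Polr3e and Polr3f did not pass. Polr3k, a small subunit, was lower by its brightest probe set (-0.77 ± 0.11, adjusted p = 0.000403). Of its 3 other probe sets above background on all arrays, the changes were 0.72, 0.54 and -0.55, and the mean over its probe sets was -0.01 (adjusted p = 0.93). The direction of Polr3k is therefore unsettled.

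In the exosome, 3 subunits form a cap that binds RNA, 6 form a ring without catalytic activity, and Exosc10 is a nuclease of the nuclear form. The cap genes Exosc3 (-0.91 ± 0.16), Exosc2 (-0.87 ± 0.14) and Exosc1 (-0.67 ± 0.11) fell, as did Exosc10 (-0.71 ± 0.15). Among ring genes Exosc5 (-1.24 ± 0.21), Exosc7 (-0.76 ± 0.14) and Exosc9 (-0.67 ± 0.17) fell. Exosc4 passed narrowly (-0.44 ± 0.16, adjusted p = 0.0462) and was lost without any of 8 single arrays (adjusted p = 0.0521 to 0.155): control day0 replicates 1 and 2, control day8 replicates 1 and 2, BPA replicate 1, or any NP array.

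Exosc5 (Entrez gene 27998) read 8.33, 8.39 and 8.15 at day 0, 7.07, 6.60 and 7.49 at control day8, 8.0, 8.29 and 8.04 with BPA and 7.68, 8.02 and 7.82 with NP. Every control day8 array was below all other arrays, and BPA overlapped with day 0. Exosc8, by contrast, read 10.03, 9.97 and 9.96 at day 0 and 9.96, 9.69 and 10.01 at control day8, and was 9.92 to 10.07 on all agent arrays, so that the 4 groups overlapped. Exosc6 was read near background, between 0.11 and 4.88, and under it on 3 of the 12 arrays, and its changes had a standard error of 1.07.

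Among box H/ACA genes, Dkc1, the pseudouridine synthase (Entrez gene 245474), read 11.53, 11.48 and 11.56 at day 0, 10.02, 10.12 and 10.12 at control day8, 11.02, 11.34 and 11.06 with BPA and 10.92, 11.11 and 11.10 with NP. The day 0, control day8 and agent arrays formed 3 ranges without overlap. The fall was -1.44 ± 0.11 (adjusted p = 1.12e-05), the smallest adjusted p among the 60. Its partners Nhp2 (-1.31 ± 0.12) and Nop10 (-1.22 ± 0.17) fell by similar amounts, while Gar1 fell by 0.62 ± 0.09, from 9.93 on each day 0 array to 9.32, 9.30 and 9.30.

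Box C/D genes fell too: Nop56 by 1.12 ± 0.17, Nop58 by 0.74 ± 0.12 and Fbl, the methyltransferase of these particles, by 0.81 ± 0.11. Ncl, nucleolin, which acts in ribosomal transcription and processing, read 13.18, 13.16 and 13.14 at day 0, 12.04, 12.10 and 12.27 at control day8, 12.62, 12.66 and 12.67 with BPA and 12.60, 12.59 and 12.83 with NP. Again the agent arrays lay between both control groups without overlap. Npm1, nucleophosmin, a histone and ribosome chaperone, moved less, from 13.68, 13.75 and 13.75 to 13.36, 13.34 and 13.31 (-0.39 ± 0.08, adjusted p = 0.00245). Among Nop genes that act in assembly, Nop2, a methyltransferase of the large subunit RNA, fell by 1.33 ± 0.12, Nop9 by 0.92 ± 0.13, Nop14 by 0.88 ± 0.10 and Nop16 by 0.81 ± 0.13. Nop53, which guides the exosome to large subunit precursors, did not pass, at 0.15 ± 0.10 (adjusted p = 0.234).

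The Utp genes held the deepest fall of the 60. Utp14a (Entrez gene 72554) read 9.80, 9.74 and 9.60 at day 0, 7.77, 7.78 and 8.06 at control day8, 8.77, 8.83 and 8.68 with BPA and 8.36, 8.85 and 8.78 with NP. Its control groups were separated by 1.84 ± 0.14, and the agent arrays lay between them without overlap. A dim second probe set of Utp14a, at a mean of 4.19, changed by -0.24. The retrogene copy Utp14b (Entrez gene 195434) read 5.81, 5.48 and 5.91 at day 0, 5.80, 6.22 and 6.07 at control day8, 5.75, 6.43 and 6.10 with BPA and 6.34, 5.89 and 5.97 with NP. All 4 groups of Utp14b overlapped (0.30 ± 0.21, adjusted p = 0.265 over control culture), although a probe set may also bind RNA of its near copy.

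Utp20 (-1.49 ± 0.13), Utp23 (-1.3 ± 0.19), Utp4 (-1.27 ± 0.12), Utp25 (-1.0 ± 0.16) and Utp18 (-0.97 ± 0.11) also fell, followed by Utp6 (-0.64 ± 0.12) and Utp3 (-0.47 ± 0.13). Utp11 and Utp15 did not pass (-0.26 ± 0.11 and -0.19 ± 0.14), and their probe sets differed: the next brightest was at 0.32 for Utp11 and at -0.90 for Utp15. Those of Utp23 differed too: besides the brightest, 2 gave -1.24 and -1.08, while the brightest of those whose name carries no suffix for shared sequence gave -0.03 (adjusted p = 0.89).

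**Figure D3:**
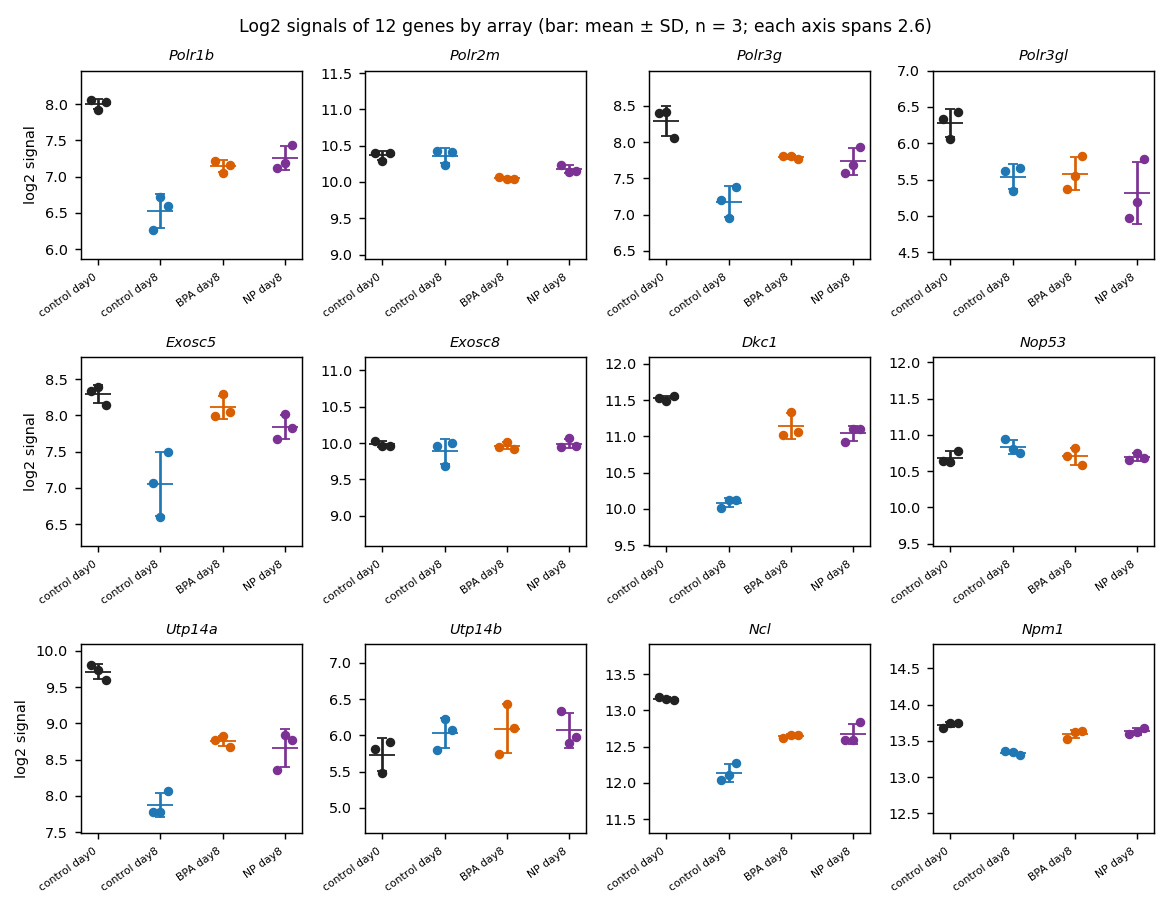
Log2 signals of 12 genes on each array, by group (points are arrays; bars show mean ± SD, n = 3; every vertical axis spans the same width). Polr1b, Polr3g, Dkc1, Utp14a and Ncl are highest at control day0 and lowest at control day8, whereas Exosc8, Nop53 and Utp14b overlap between the control groups; Polr2m is lowest with BPA.

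With BPA at day 8, a set of these genes stood above the untreated day 8 arrays. Of the 60, 18 were higher and 1 was lower, where 12% of all genes tested were higher and 10.2% lower (22.2% called in all). At an unadjusted p under 0.05 the counts were 23 and 1. The median change was 0.21, beside 0.04 for all genes tested. Arrays did not overlap for 24 higher members, beside 22.5% of all genes tested, and for 1 lower member, beside 19.2%. By class, 6 of 14 Nop and nucleolar genes, 5 of 11 Utp genes, 2 of 5 Pol I genes, 2 of 9 Pol III genes, 2 of 11 Pol II genes and 1 of 10 exosome genes rose.

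The largest rises with BPA were those of Exosc5 (1.06 ± 0.21, adjusted p = 0.00638) and Dkc1 (1.06 ± 0.11, adjusted p = 0.000381). Utp14a rose by 0.88 ± 0.14, Utp18, a scaffold protein of the processome, by 0.73 ± 0.11, Utp23 by 0.64 ± 0.19, Polr1b by 0.62 ± 0.13 and Polr3g by 0.62 ± 0.15. Nhp2 (0.56 ± 0.12), Utp6 (0.53 ± 0.12), Ncl (0.51 ± 0.10), Utp20 (0.51 ± 0.13), Polr1e (0.46 ± 0.13), Polr3a (0.42 ± 0.11) and Polr2e (0.41 ± 0.11) followed. Nop2, Fbl, Polr2j and Npm1 rose by 0.26 to 0.37. Polr2m was the only member called lower (-0.31 ± 0.09, adjusted p = 0.0289).

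Of these 19 calls, 8 stayed past the threshold without each of the 12 arrays in turn: Dkc1, Exosc5, Ncl, Nhp2, Polr1b, Utp14a, Utp18 and Utp6. Of the 8, Dkc1, Exosc5, Nhp2, Polr1b and Utp18 also stayed under every other setting listed in the last section. Utp14a did not pass by the mean of its probe sets (limma, adjusted p = 0.0534). Utp6 did not pass when the compared groups were fitted alone (adjusted p = 0.0624). Fbl, Nop2, Npm1 and Polr2j were each lost without any of 10 single arrays, control day8 replicate 1 and BPA replicates 1 and 2 among them. Polr3g was lost without control day8 replicate 2 (adjusted p = 0.0563), and Utp20 without control day8 replicate 1 or BPA replicate 1 or 2 (0.0637 to 0.0749). Polr1e, Polr2e, Polr3a, Utp23 and Polr2m were each lost without any of 4 or 5 arrays, control day8 replicate 1 among them in each case. The total of 19 was 9 without control day8 replicate 1, 10 without BPA replicate 1 or 2, and 12 without control day8 replicate 2. Ncl kept its rise in 4 of its 5 probe sets (0.48 to 0.62), while the dimmest, at a mean log2 signal of 3.30, was at -2.05, so that the mean over probe sets was 0.01 (adjusted p = 0.984).

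With NP, 14 members were higher than control day8 and 0 were lower, where 7.90% of all genes tested were higher and 6.28% lower (14.2% called in all). At an unadjusted p under 0.05, 21 were higher and 0 lower. The median change was 0.20, beside 0.01 for all genes tested. Arrays did not overlap for 27 higher members (17.7% of all genes tested) and 2 lower ones (17.1%). By class, 6 of 14 Nop and nucleolar genes, 3 of 11 Utp genes and 2 of 5 Pol I genes rose. So did 1 of 11 Pol II genes (9.09%), 1 of 10 exosome genes (10%) and 1 of 9 Pol III genes (11.1%). The last 3 shares are near the 7.90% of all genes tested.

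Dkc1 rose most with NP (0.95 ± 0.11, adjusted p = 0.00107), ahead of Utp14a (0.79 ± 0.14), Exosc5 (0.79 ± 0.21), Polr1b (0.73 ± 0.13) and Utp18 (0.59 ± 0.11). Nhp2 (0.57 ± 0.12), Polr1e (0.56 ± 0.13), Polr3g (0.55 ± 0.15), Ncl (0.54 ± 0.10), Utp20 (0.49 ± 0.13), Fbl (0.49 ± 0.11) and Nop2 (0.48 ± 0.12) were next. Polr2e (0.37 ± 0.11) and Npm1 (0.29 ± 0.08) passed too, Polr2e just under the threshold. Without each array in turn, 5 calls stayed: Dkc1, Ncl, Polr1b, Utp14a and Utp18. Only Dkc1 and Utp18 also stayed under every other setting listed in the last section. Ncl, Polr1b and Utp14a did not pass when limma was fitted on the compared groups alone (adjusted p = 0.0656 to 0.0735). By the mean of probe sets, Ncl (adjusted p = 0.241) and Utp14a (0.123) did not pass either. Nhp2 was lost without NP replicate 2 (adjusted p = 0.0576) and Fbl without control day8 replicate 1 or NP replicate 2 (0.0615 to 0.0668). The other 7 were each lost without any of 4 to 10 single arrays, which included control day8 replicate 1 and NP replicate 2 in each case. The total of 14 was 6 without control day8 replicate 1 or NP replicate 2, 7 without NP replicate 3 and 8 without control day8 replicate 2. Fitted on the 6 arrays of NP and control day8 alone, it was 2.

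Both agent comparisons share the control day8 arrays. Other measures moved with the agents. The excess of 3′ over 5′ signal of Actb, a measure of RNA integrity and labelling, was 1.52 to 1.72 with BPA and 1.46 to 1.64 with NP as log2, against 1.27 to 1.42 at control day8 and 1.22 to 1.36 at day 0. That of Gapdh was 0.23 to 0.31 at control day8, 0.22 to 0.44 with BPA, which overlaps, and 0.31 to 0.35 with NP, where all 3 arrays lay above control day8 by a small margin; at day 0 it was 0.20 to 0.35. The summed pluripotency markers were 13.07 to 13.22 with BPA and 12.79 to 13.39 with NP, above control day8, and the summed fibroblast markers were 7.67 to 8.01 and 7.39 to 8.19, below it. Of the fibroblast markers, Thy1 and S100a4 were around background and overlapped with control day8. Thy1 read 0.05 to 4.35 with BPA and 2.73 to 3.93 with NP. The summed cardiac markers were 7.53 to 8.54 with BPA and 7.56 to 9.87 with NP, also below control day8. Tnnt2, Myh6, Myl7 and Tbx20 lay below control day8 on all agent arrays, whereas Actn2 and Nkx2-5 overlapped with it in both agent groups. The summed visceral endoderm markers were not lower. They were 12.64 to 13.22 with BPA and 13.43 to 13.58 with NP, which overlap with 12.65 to 13.62 at control day8. Their members differed. Gata6 read 9.12 to 9.75 at control day8, 7.28 to 7.64 with BPA and 7.76 to 8.25 with NP, lower without overlap. Afp and Sox17 lay above control day8 with NP and overlapped with it with BPA. The part of these in the rises of the 60 genes was not tested.

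**Figure D4:**
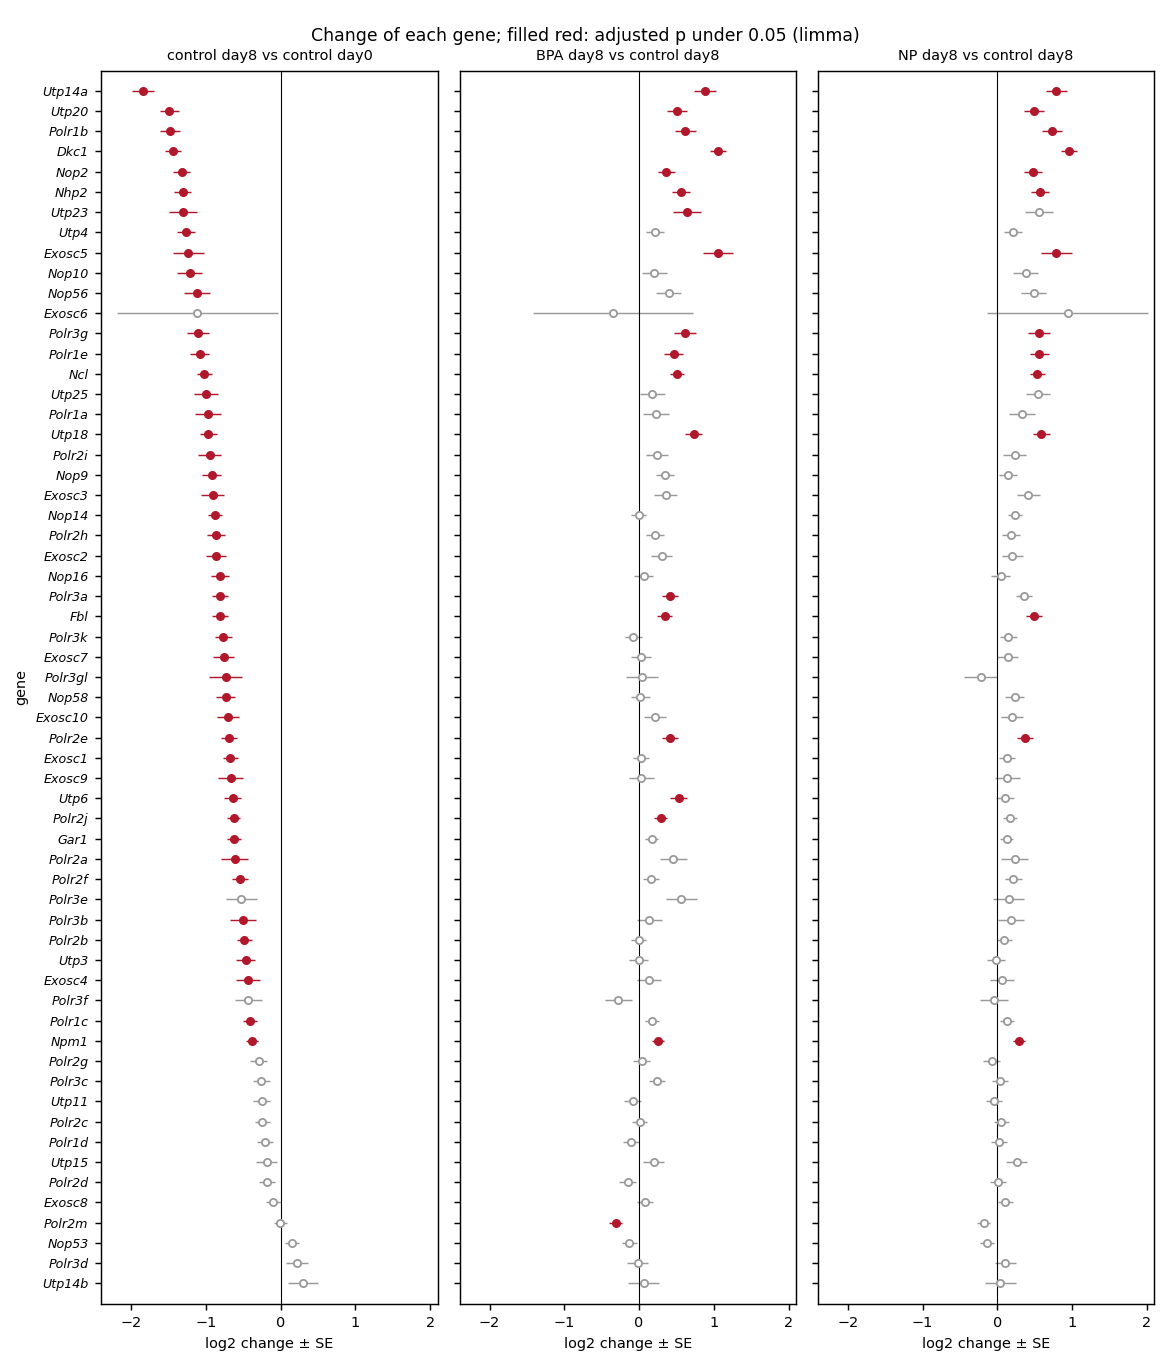
Log2 change ± SE of each of the 60 genes, ordered by the change over control culture, for control day8 against control day0 (left) and for BPA and NP against control day8 (both from limma over 12 arrays, 3 per group; filled red points have an adjusted p under 0.05). The left panel holds 45 red points, all below 0; the middle panel 19, of which only Polr2m is below 0; and the right panel 14, all above 0.

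Between the agents no member was called. In NP day8 against BPA day8, 0 of the 60 passed (2 higher and 1 lower at an unadjusted p under 0.05), where 0.00765% of all genes tested, 1 gene, was called by limma. The largest differences were those of Utp6 (-0.43 ± 0.12, adjusted p = 0.398), Polr3e (-0.42 ± 0.21) and Utp25 (0.36 ± 0.16), leaving out Exosc6. Utp6 read 8.69, 8.71 and 8.74 with BPA and 8.34, 8.23 and 8.28 with NP, groups that did not overlap. The 95% interval of a difference reached 0.28 to either side at the median, and over the 59 genes without Exosc6 all intervals lay between -0.88 and 0.73. Differences between the agents within these intervals could not be resolved with this number of arrays.

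Set against control day0 instead, comparisons added after the data were seen, the agent arrays were still lower. With BPA 41 members were lower and 0 higher, where 11.9% of all genes tested were lower and 21.7% higher, and the median was -0.49. With NP 40 were lower and 0 higher, beside 11.9% and 20.2% of all genes tested, and the median was -0.48. Both comparisons share the control day0 arrays with each other and with the control comparison. Exosc5 was -0.18 ± 0.21 from day 0 with BPA and -0.45 ± 0.21 with NP, and passed in neither (adjusted p = 0.537 and 0.125). Polr1b was lower with both (-0.85 ± 0.13 and -0.75 ± 0.13), as was Utp14a (-0.96 ± 0.14 and -1.05 ± 0.14), which did not pass by the mean of its probe sets (adjusted p = 0.146 and 0.0834). Dkc1 was at -0.38 ± 0.11 with BPA (adjusted p = 0.0207) and -0.48 ± 0.11 with NP. With BPA its call was lost after quantile normalization (-0.26, adjusted p = 0.0918) and without control day0 replicate 1 or 3 or BPA replicate 1 or 3 (0.0515 to 0.0735). Npm1 was -0.13 ± 0.08 and -0.10 ± 0.08, and did not pass. After quantile normalization 37 members were lower than at day 0 with BPA and 36 with NP, each beside 12.4% of all genes tested.

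Quantile normalization, which gives every array the same distribution of signals, left most calls in place. Over control culture 47 members were lower and 1 was higher, where 22.5% of all genes tested were lower and 23.9% higher. The median of the 60 was -0.74 under both scalings, while that of all genes tested went from 0.12 to 0.01. Of the calls, 44 were lower under both scalings. Polr1c was called with deposited values only (adjusted p = 0.0501 after quantile normalization), and Polr3c, Polr3e and Polr3f were called lower after quantile normalization only. Nop53 became the 1 member called higher (0.33 ± 0.09, adjusted p = 0.0163). No member was called in opposite directions.

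With BPA, 17 calls were shared by both scalings, 16 higher and 1 lower. Fbl and Npm1 were called with deposited values only and Nop9 after quantile normalization only; the quantile counts were 17 higher and 1 lower, beside 13.4% and 9.82% of all genes tested. With NP, 12 were shared, Polr2e and Npm1 were called with deposited values only, and Utp25 and Polr3a after quantile normalization only, which made 14 higher (8.51% of all genes tested) and 0 lower (6.02%). No member was called between the agents under either scaling.

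The shift between scalings followed the level of the gene. In control day8 against control day0, all 26 members with a mean log2 signal of 9 or more moved up under quantile normalization (median shift 0.15), and 29 of the 34 below 9 moved down (median -0.10). Spearman's rho between shift and mean level was 0.96 over the 60 genes, which share arrays and are not independent; it was -0.95 with BPA and -0.97 with NP. The bright genes Ncl and Npm1 therefore rose less with the agents after quantile normalization, and dim ones such as Polr1e more. Members near 0 over control culture changed sign: Polr2m went from -0.01 to 0.18, Exosc8 from -0.10 to 0.04 and Polr3d from 0.22 to -0.01, none of them past the threshold under either scaling.

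**Figure D5:**
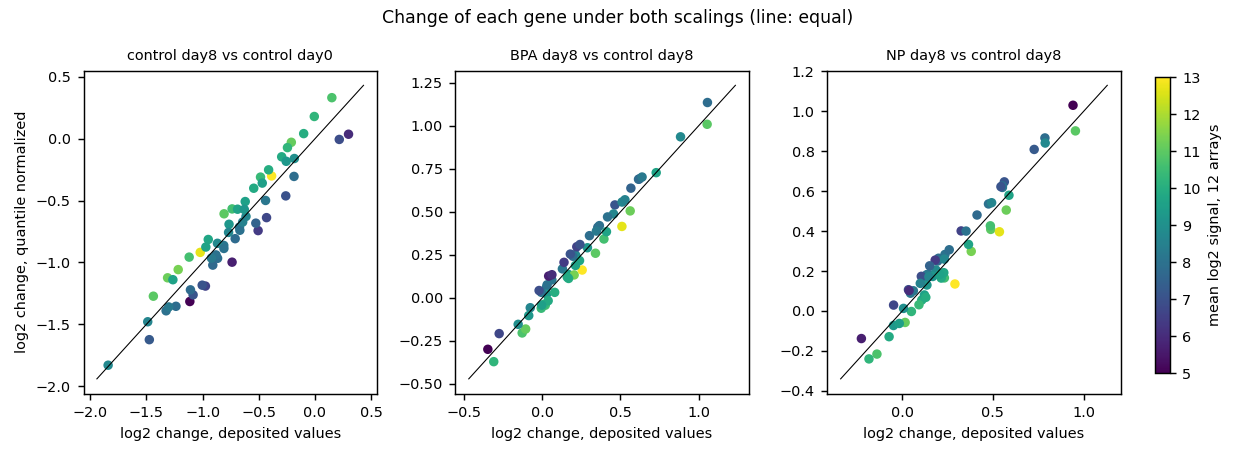
Log2 change of each of the 60 genes with deposited values (horizontal) and after quantile normalization (vertical) in the comparisons of control day8 with control day0 and of BPA and NP with control day8; colour is the mean log2 signal over 12 arrays and the line marks equal changes. In the left panel bright genes lie above the line and dim genes below it, and in the other panels the order is turned.

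Genes of the same processes outside the 60 were taken from lists chosen with results of these data known. Of 80 other factors of ribosomal RNA processing and of the nucleolus, 71 fell and 0 rose over control culture, with a median of -0.98. Among all genes tested 20.5% were lower and 28.3% higher. With BPA 32 rose and 1 fell, beside 12% and 10.2% of all genes tested. With NP 26 rose and 0 fell, beside 7.90% and 6.28%. Rrp9, a U3 snoRNP protein, changed by -2.15 ± 0.27 over control culture, Noc3l by -2.02 ± 0.12 and Rrp12 by -1.63 ± 0.14. With BPA they were at 0.94 ± 0.27, 0.98 ± 0.12 and 0.77 ± 0.14 from control day8, all past the threshold, and Rrp1 was the 1 that fell (-0.46 ± 0.09).

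Of 27 factors of Pol I and Pol III transcription, 13 fell and 2 rose over control culture, beside 20.5% and 28.3% of all genes tested. Taf1d (-1.46 ± 0.20), Rrn3 (-1.34 ± 0.10) and Ubtf (-1.17 ± 0.18), which act at the ribosomal RNA promoter, fell, whereas Brf1 (1.14 ± 0.24) and Gtf3c1 (0.93 ± 0.13), both of the Pol III apparatus, rose. With BPA 4 of the 27 rose, among them Rrn3 (0.66 ± 0.10), and with NP 2, again with Rrn3 (0.56 ± 0.10); these counts are near the 12% and 7.90% of all genes tested that were higher. Of 19 exosome cofactors and nucleases, 8 fell and 1 rose over control culture, beside the same 20.5% and 28.3%. Dis3, a catalytic subunit, was at -1.01 ± 0.12. Skiv2l, a helicase of the cytoplasmic cofactor, was the 1 that rose (0.79 ± 0.28). Dis3 and Zcchc7 were the 2 of the 19 that rose with each agent, again near the share of all genes tested. After quantile normalization Dis3 did not pass with NP (adjusted p = 0.0554), and 3 of the 19 were higher with BPA.

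The Myc family, whose members bind the E-box, held 10 genes tested. Over control culture Mycn (-1.19 ± 0.15), Mga (-0.99 ± 0.22) and Mnt (-0.75 ± 0.25) fell. Mxd4 (1.34 ± 0.19) and Mxi1 (0.98 ± 0.13) rose, and the other 5 did not pass. Of all genes tested, 20.5% were lower and 28.3% higher over control culture, and the 3 lower and 2 higher of 10 are near these shares. With BPA Mga rose (0.78 ± 0.22) and Mxd4 fell (-0.62 ± 0.19), where 12% of all genes tested were higher and 10.2% lower. These counts, 1 of 10 in each direction, are again near those shares. With NP Mycl (1.04 ± 0.25) and Mycn (0.51 ± 0.15) rose and Mxd4 fell (-0.79 ± 0.19), where 7.90% were higher and 6.28% lower. After quantile normalization Mxd4 did not pass with BPA (adjusted p = 0.0509), nor Mycn with NP (adjusted p = 0.0764). None of these lists held a gene called between the agents (limma, adjusted p under 0.05).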

How the data were processed

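The authors deposited a log2 signal for every probe set, computed with MAS5, per the submitters' processing notes; its version is not given in the sources used here. On the linear scale, the mean trimmed by 2% at either end was 100.002 on all 12 arrays, which shows a common scaling per array. Of 45101 probe sets in all, 64 were controls, 34945 were named with 1 gene and 932 with several by the platform's annotation; those with several were left out, and the number of arrays limits the precision. The members, the related lists and the motifs were chosen with earlier results of these data known.

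Values were used without a pseudocount. Probe sets in the top 60% by mean (27023) were kept, and each gene was read from its brightest probe set (13067 genes). A mean per group was fitted over the 12 arrays with limma 3.58.1 in R 4.3.3 (lmFit, eBayes; 8 residual and 1.57 prior degrees of freedom), 2-sided, adjusted by Benjamini-Hochberg over all genes tested, threshold 0.05. Background is the highest value of 3 bacterial TrpnX probe sets, a log2 signal of 3.41 (signal 10.6). Quantile normalization ran over all probe sets. Any member could be named, and all calls in the 4 comparisons planned (control days, each agent against control day8, NP against BPA) were followed through every alternative. The fit was tested on simulated data. Deviations from group means correlated at -0.01 to 0.08 between arrays with equal replicate numbers and at -0.11 to 0.055 between those with unequal numbers. These ranges overlap, their difference was not tested, and whether the numbers pair arrays is not settled. Figures were drawn with matplotlib 3.10.9. Protein sequences were not used here.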

Additional observations from a re-analysis of the deposited data

How the results depend on the processing

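Of the 78 member calls in the planned comparisons, 73 kept their side of the threshold with quantile normalized values and 75 with median centred ones; 5 and 3 lost it. The 1 reversal was that of Polr3k over control culture, at 0.54 (adjusted p = 0.0508) when probe sets without a suffix were used. The median over control culture was -0.85 after centring on the array median. Centring on the median of the genes tested, chosen after seeing the data, gave -1.05 over control culture, -0.77 for BPA and -0.74 for NP against day 0. The BPA count of 19 was 11 without a filter and 9 when the fit held the 2 compared groups alone. The NP count of 14 was 8 without a filter, 9 with the mean of probe sets, 2 from the compared groups alone, and 9 with the replicate number as a block; the block gave 44 over control culture, 13 with BPA, and 37 and 32 for BPA and NP against day 0. Whether the numbers pair the arrays is not settled, and the block shows nothing about pairing. Leaving out single arrays gave 41 to 47 calls over control culture, 9 to 17 with BPA, 6 to 15 with NP, 28 to 40 for BPA and 27 to 40 for NP against day 0, and 0 between the agents, with 2 arrays left in a group and the spread pooled over groups. The other settings, run for every comparison, were pseudocounts of 1 and 16, the top 40% of probe sets, a trended robust prior, array weights and, chosen after seeing the data, quantile normalization of the genes tested. The causes of these shifts were not tested. The number of arrays limits every value, and members near background, such as Exosc6, were read with large errors.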
